A study of Pimephales promelas with 80 samples.

Results

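In all, 70 genes of the fathead minnow (Pimephales promelas) had raised messenger RNA in larvae kept in the highest doses of both 6PPD and 6PPD-Q. They were 70 of the 26150 genes counted in the series. Levels are read counts scaled to the library's total in genes (CPM, counts per M), and L stands for log2(CPM + 1). The members were chosen by measured levels in controls and at the top dose of each chemical. A gene was a member when it had 10 or more counts in every control and 3 further conditions held: mean L was at least 0.5 above the control mean at 2.68 mg/L of 6PPD, mean L was at least 0.4 above it at 8.78 mg/L of 6PPD-Q, and all 5 fish at 2.68 mg/L of 6PPD exceeded the highest control. Of the 26150 genes, 18486 passed the count minimum, 1023 of these had all 5 fish at 2.68 mg/L above the highest control, 815 of those also rose by 0.5 or more, and 70 met the condition on the quinone.

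The series holds 80 libraries, each from the whole body of 1 larva exposed for 24 hours without food. Groups were 30 fish at 6 nominal doses of 6PPD (0.00848, 0.0268, 0.0848, 0.268, 0.848 and 2.68 mg/L), 40 fish at 8 nominal doses of 6PPD-Q (0.00277, 0.00878, 0.0277, 0.0878, 0.277, 0.878, 2.77 and 8.78 mg/L) and 10 controls at dose 0 common to both chemicals. Every dose had 5 fish, and the protocol gives 0.3% DMSO, a solvent, in the wells. The embryos were of several crosses, and the larvae were pooled and then sorted at random. No strain or sex is given, and the labels give an age of 5 days both since hatching and since fertilization. The question behind the series was whether the quinone acts on the larval transcriptome in a way that bears on the unequal sensitivity of fish species.

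6PPD is an antioxidant that protects tire rubber from ozone, and 6PPD-Q is the quinone formed when it is oxidized. The quinone reaches streams in road runoff and is known for killing coho salmon at very low levels, whereas the fathead minnow is a species that tolerates it. Genes that rise in common after exposure to related foreign chemicals usually include enzymes that oxidize, conjugate or export such compounds, and genes of the oxidative and protein-folding stress responses. The identifiers in the files are not paired with gene names and none of the 26150 matched the supplied RefSeq gene table, so no member is given a name or a role here, and neither the whole-body label nor any cell type could be checked against markers. FMg014186 is the member with the largest difference from controls at 2.68 mg/L of 6PPD and FMg014221 the one with the largest at 8.78 mg/L of 6PPD-Q. FMg014221 ranked 2 in the first ordering, and the other members are called by their rank in it.

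Library totals in genes ranged between 16.2 and 36.6 M counts (median 20.3 M), with 22110 to 23163 genes detected per fish. The fish with 22110 genes was replicate 5 at 8.78 mg/L of 6PPD-Q. It and 1 other fish have no column in the authors' deposited table for the quinone. Reads outside genes made up 10.1% to 12.5% of reads at 8.78 mg/L of 6PPD-Q (median 11.9%), against 9.25% to 11.7% in controls (median 10.2%). A fit that takes this share as a covariate is given with the results for the quinone. That fit holds no fish at 8.78 mg/L and no control, so it cannot address this difference or its part in the choice of members. The library names carry the letter A in 3 libraries (replicate 1 at 2.68 mg/L of 6PPD and control replicates 1 and 2) and C in 77. These letters are read here as plates A and C, and whether they mark a batch is not stated. Without those 3 libraries the same conditions gave 98 genes, 66 of the 70 members among them. Without replicate 5 at 8.78 mg/L they gave 87, with 64 of the members.

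The groups used to choose the members are described first, with no test, because these values made the choice. At 2.68 mg/L of 6PPD the members' mean L was 0.52 to 6.01 above the control mean, with a median of 1.52. The difference was 2 or more in 24 members, 1 to 2 in 38 and under 1 in 8. For 6PPD-Q at 8.78 mg/L this difference ran between 0.40 and 2.34, with a median of 0.63, and reached 1 in 8 members. The doses differ, and mean L was higher at 2.68 mg/L of 6PPD than at 8.78 mg/L of 6PPD-Q in all 70 members. All 5 fish at 8.78 mg/L of 6PPD-Q exceeded the highest control in 15 of 70 members, where 0.157% of the 18486 genes did, and at 2.68 mg/L of 6PPD in all 70 by the rule, where 5.53% did. With plate C fish alone the median difference at 2.68 mg/L was 1.58.

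The condition on the quinone set the size of the list. The members just inside it had differences of 0.401, 0.401 and 0.404, and the genes just outside it had 0.393, 0.390 and 0.389. Within 0.1 of the limit lay 18 members above it and 40 other genes below it. The condition on 6PPD cut nothing nearby: its lowest members had 0.52, 0.70 and 0.76, and no gene that met the rest lay within 0.1 below the limit.

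FMg014186 had 96.4, 96.8, 45.9, 14.2 and 151 CPM at 0.848 mg/L of 6PPD and 264, 332, 256, 169 and 369 CPM at 2.68 mg/L, against 1.41 to 7.57 CPM in controls (median 3.19). Every fish at both doses was above every control. Its mean at 2.68 mg/L was 79.4 times that of controls. With the quinone it had 26.6, 4.23, 7.50, 5.97 and 2.17 CPM at 2.77 mg/L and 6.05, 5.04, 11.5, 25.0 and 5.57 CPM at 8.78 mg/L, so that 1 fish at the lower and 2 at the higher of these doses exceeded the highest control and the groups overlapped.

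FMg014221 did not overlap the controls at the top dose of either chemical. The rule fixed this for 6PPD, and the gene was picked for its largest difference with 6PPD-Q. It had 210.0, 150.3, 111, 127 and 359 CPM at 0.848 mg/L of 6PPD and 372, 365, 354, 264 and 466.3 CPM at 2.68 mg/L, against 4.16 to 10.2 CPM in controls (median 7.13). At 8.78 mg/L of 6PPD-Q it had 16.6, 42.9, 41.2, 63.5 and 50.2 CPM, all above the highest control, with a mean 5.97 times that of controls. At 2.77 mg/L it had 36.0, 9.35, 10.9, 15.5 and 7.12 CPM, of which 3 fish were above the highest control.

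**Figure D1:**
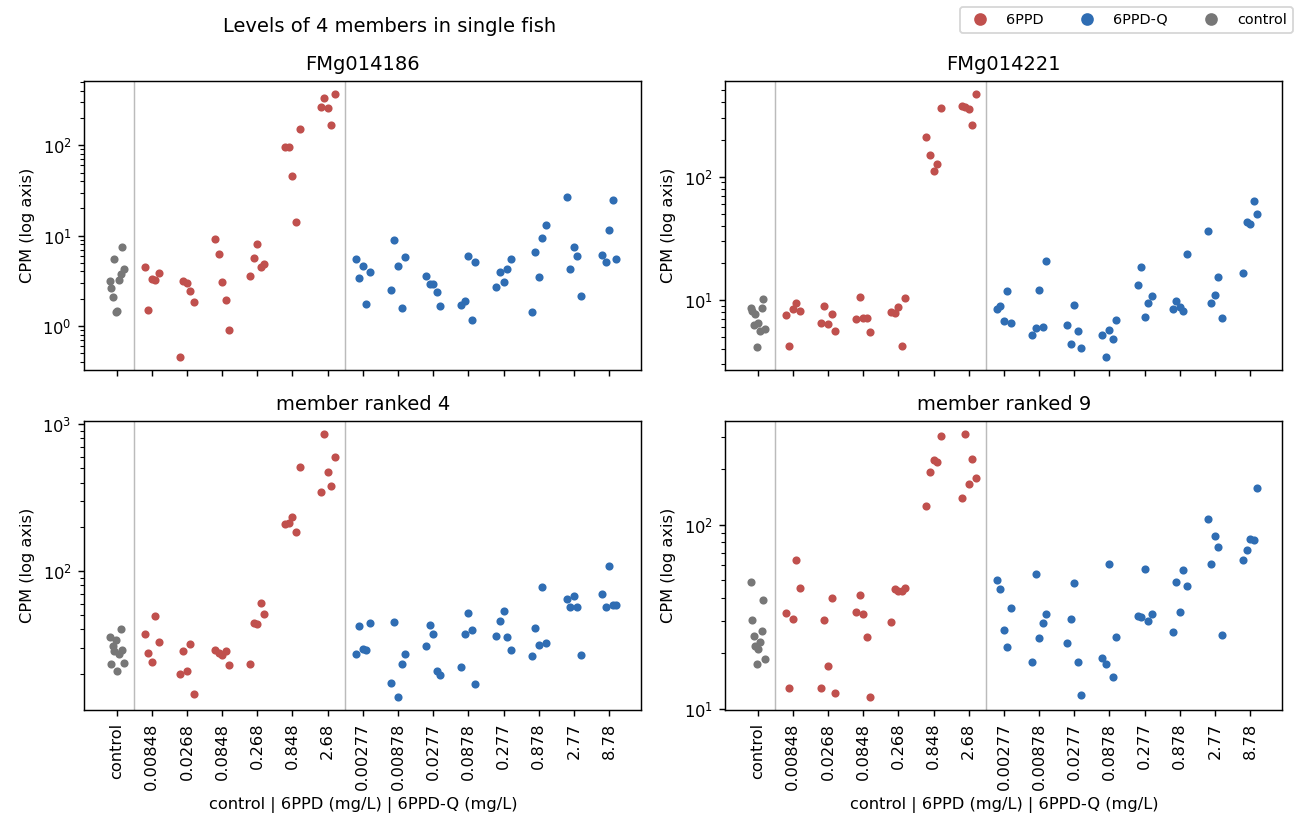
Level of 4 members in single fish (CPM on a log axis) in controls (grey), at 6 doses of 6PPD (red) and at 8 doses of 6PPD-Q (blue). Each point is 1 fish. At 0.848 mg/L of 6PPD all 5 fish were above every control in each of the 4 members. The same held at 2.68 mg/L by the rule. At 8.78 mg/L of 6PPD-Q all 5 fish were above every control for FMg014221 and the members ranked 4 and 9.

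The member ranked 4 had 208, 213, 234, 185 and 511 CPM at 0.848 mg/L of 6PPD and 348, 859.7, 475, 381 and 598 CPM at 2.68 mg/L, against 21.0 to 40.1 CPM in controls (median 28.7). At 8.78 mg/L of 6PPD-Q it had 70.1, 56.5, 107, 58.9 and 58.7 CPM, again above every control. The member ranked 9 was about as high at 0.848 as at 2.68 mg/L of 6PPD, with 127, 194, 224, 219 and 305 CPM at 0.848 mg/L and 140.1, 311, 167, 228 and 179 CPM at 2.68 mg/L, against 17.5 to 48.9 CPM in controls (median 23.9). It had the second largest difference at 8.78 mg/L of 6PPD-Q, with 63.9, 73.2, 83.1, 83.0 and 157 CPM. The member ranked 8 came next there, at 20.4, 17.0, 18.0, 20.7 and 36.1 CPM, against 5.78 to 15.0 CPM in controls (median 6.61).

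The members ranked 3, 5 and 6 are the remaining ones of the 6 with the largest differences at 2.68 mg/L of 6PPD. The member ranked 3 had 828, 355, 297, 109 and 247 CPM at 2.68 mg/L of 6PPD, against 8.71 to 20.4 CPM in controls (median 16.0). At 8.78 mg/L of 6PPD-Q it had 20.3, 35.3, 29.9, 23.3 and 11.1 CPM, which overlapped the controls. The member ranked 5 averaged 114 ± 29.3 CPM at 2.68 mg/L of 6PPD and 17.9 ± 2.34 CPM at 8.78 mg/L of 6PPD-Q (SD, n = 5 each), and 9.35 ± 1.59 CPM in controls (SD, n = 10). The member ranked 6 had 147, 232, 143, 85.3 and 68.1 CPM at 2.68 mg/L of 6PPD and 27.9, 11.6, 34.4, 6.56 and 28.3 CPM at 8.78 mg/L of 6PPD-Q, against 3.88 to 17.9 CPM in controls (median 13.5). Its fish at 8.78 mg/L overlapped the controls.

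Members differed widely in how much RNA controls held. Mean control levels ran from 1.42 to 339 CPM with a median of 18.5 CPM, close to the median of 15.6 CPM over all 18486 genes with 10 or more counts in every control. The most abundant member in controls, ranked 53, averaged 749.8 ± 205 CPM at 2.68 mg/L of 6PPD and 484 ± 226 CPM at 8.78 mg/L of 6PPD-Q (SD, n = 5 each), and 339 ± 77.4 CPM in controls (SD, n = 10). The member ranked 27 averaged 1085 ± 176 and 461 ± 95.3 CPM at these doses and 291 ± 55.0 CPM in controls, and the member ranked 25 averaged 1078 ± 251 and 474 ± 162 CPM, and 276 ± 43.7 CPM in controls. Summed over the 70 members, RNA made up 10410.4 ± 1913 CPM at 2.68 mg/L of 6PPD and 4589 ± 604 CPM at 8.78 mg/L of 6PPD-Q (SD, n = 5 each), and 2746 ± 197 CPM in controls (SD, n = 10). In whole larvae, more cells of a type that express a gene and more RNA of that gene per cell cannot be told apart.

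The last members by each condition were less clear of the controls. The member ranked 70 averaged 169 ± 15.7 CPM at 2.68 mg/L of 6PPD and 159 ± 38.4 CPM at 8.78 mg/L of 6PPD-Q (SD, n = 5 each), and 118 ± 19.3 CPM in controls (SD, n = 10). The member ranked 47, last by the quinone, averaged 55.3 ± 6.45 and 30.2 ± 4.64 CPM at these doses and 22.5 ± 2.71 CPM in controls.

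Across the dose series the members' median difference from the control mean in L was 0.18, -0.10, 0.01, 0.18, 0.80 and 1.52 at the 6 rising doses of 6PPD. At the 8 rising doses of 6PPD-Q it was 0.09, 0.04, 0.03, 0.09, 0.16, 0.16, 0.33 and 0.63. The median over all 18486 genes stayed between -0.07 and 0.01 at every dose. With 6PPD 62 of 70 members were above the control mean at 0.268 mg/L, where 49.3% of the 18486 genes were, and all 70 were at 0.848 mg/L, where 49.4% were. At 0.00848, 0.0268 and 0.0848 mg/L 57, 22 and 36 members were, where 50.3%, 45.1% and 38.9% of genes were. At 6PPD-Q doses from 0.00277 to 0.878 mg/L 38 to 59 members were, where 34.5% to 52.4% of genes were. At 2.77 mg/L of 6PPD-Q 64 members were, where 51.2% of genes were. The rule used these controls, so such counts are not independent of the choice of members. With 6PPD-Q the highest medians were those at 2.77 and 8.78 mg/L.

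**Figure D2:**
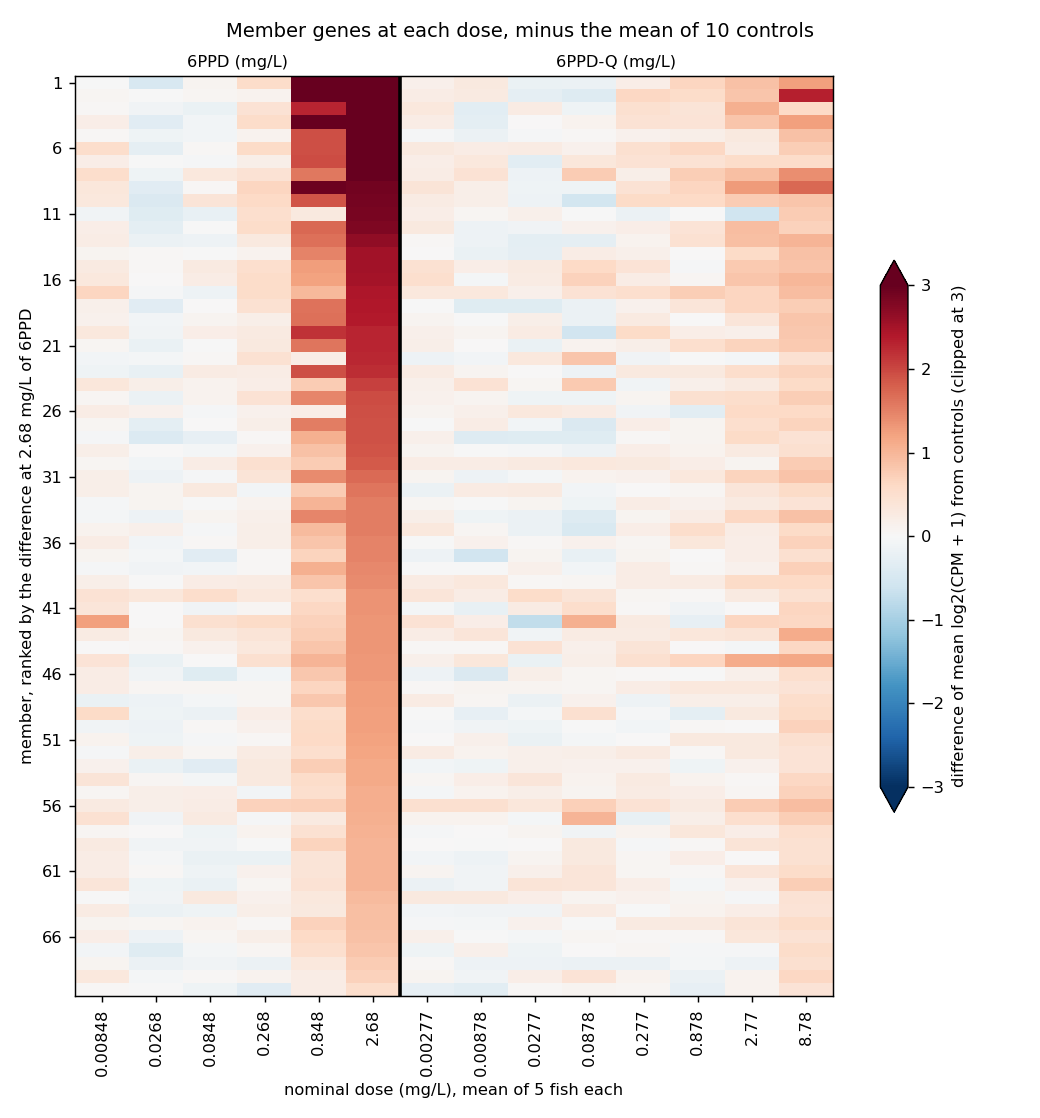
Difference of mean L from the mean of 10 controls (colour, clipped at 3) for the 70 members (rows, ranked by the difference at 2.68 mg/L of 6PPD) at each nominal dose in mg/L (columns, 5 fish each). Medians were 0.80 and 1.52 in the 0.848 and 2.68 mg/L columns of 6PPD, and 0.33 and 0.63 in the 2.77 and 8.78 mg/L columns of 6PPD-Q. At 0.848 mg/L of 6PPD the quartiles were 0.53 and 1.53 and the highest value 4.45, so colour there ran from pale to full.

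Single fish were summarized over all members. The mean over the 70 members of a fish's L minus the control mean had an SD of 0.0988 among the 10 controls and a highest control value of 0.13. It averaged 1.09 ± 0.17 at 0.848 mg/L and 1.88 ± 0.25 at 2.68 mg/L of 6PPD (SD, n = 5 each), with every fish above the highest control. At 2.68 mg/L the rule fixed this outcome. The rule also used the controls and the fish at 8.78 mg/L of 6PPD-Q. At 2.77 mg/L of 6PPD-Q the 5 fish had 0.62, 0.29, 0.57, 0.45 and 0.04, so 1 fish lay among the controls, and at 8.78 mg/L they had 0.84, 0.47, 0.88, 0.62 and 0.77, all above them. At 0.268 mg/L of 6PPD the mean was 0.23 ± 0.14 and at 0.878 mg/L of 6PPD-Q 0.19 ± 0.11 (SD, n = 5 each). At both doses 4 of 5 fish exceeded the highest control, as many as at 2.77 mg/L of 6PPD-Q. Between 0 and 3 of 5 fish were above it at each of the other lower doses. The 5 fish at the lowest 6PPD dose, 0.00848 mg/L, were spread more widely than at any other dose, at 0.35, -0.35, 0.05, 0.34 and 0.52.

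**Figure D3:**
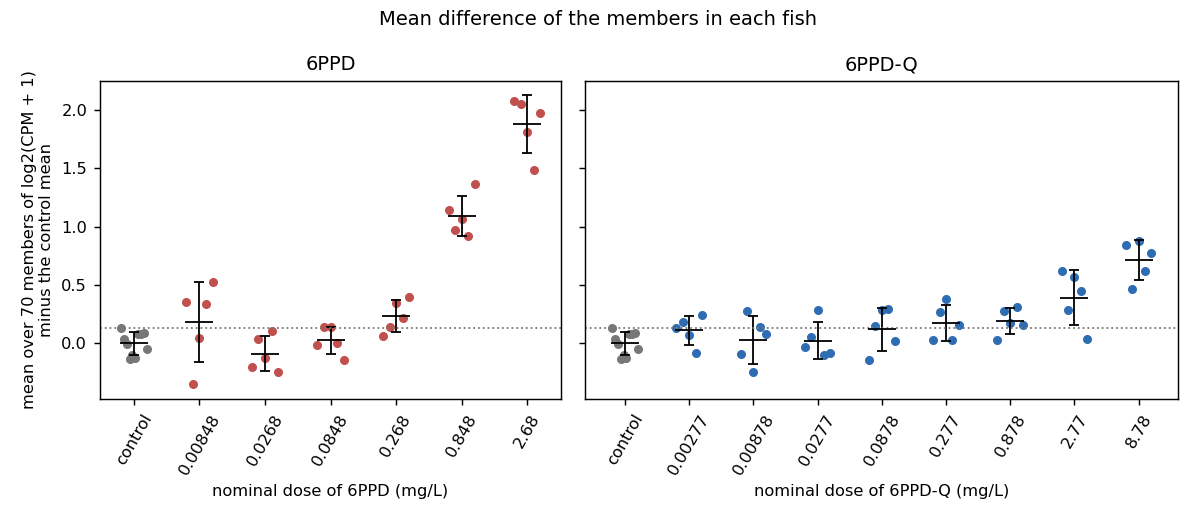
Mean over the 70 members of L minus the control mean, per fish, by nominal dose of 6PPD (left) and 6PPD-Q (right), with the 10 controls at the low end of both. Bars are mean and SD, and the dotted line is the highest control (0.13). All 5 fish lie above it at 0.848 and 2.68 mg/L of 6PPD and at 8.78 mg/L of 6PPD-Q. At 2.68 mg/L this follows from the rule, which also used the controls and the fish at 8.78 mg/L. Above it lie 4 of 5 fish at 0.268 mg/L of 6PPD and at 0.878 and 2.77 mg/L of 6PPD-Q. At the other doses 0 to 3 of 5 do.

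Single members could also be counted by whether all 5 fish of a dose exceeded all 10 controls. At 0.848 mg/L of 6PPD this held for 32 of 70 members, against a background of 0.747% of 18486 genes. At 2.77 mg/L of 6PPD-Q it held for 2 members, ranked 39 and 45, against 0.135% of genes. At 0.878 mg/L of 6PPD-Q it held for 1, ranked 21, against 0.0162%, and at 0.00848 mg/L of 6PPD for 1, ranked 42, against 0.0325%. The last had 17.4, 13.7, 12.6, 21.6 and 16.0 CPM at that lowest dose, against 1.01 to 11.7 CPM in controls. The member ranked 42 was very low in some fish of many other groups. Control replicates 7 and 10 had 38 and 21 counts of it, where the other controls had 110 to 238. Both enter the control mean that the rule used and lower it, which raises this member's differences from controls. Its difference at 8.78 mg/L of 6PPD-Q was 0.62, where the limit was 0.4, so its place in the list may rest on these controls. A low fish at 8.78 mg/L, replicate 2 with 2.07 CPM, acts the other way. Leaving out both controls was not tried, so the member is not shown to be raised by the quinone without them. With 6PPD this member had 22 counts in replicate 2 at 0.0268 mg/L, 11 in replicate 1 at 0.0848 mg/L and 37 in replicate 5 at 0.848 mg/L. Among fish with 6PPD-Q it had 29 in replicate 2 at 0.00878 mg/L and 40, 27 and 27 in replicates 2, 3 and 4 at 0.0277 mg/L. It had 18 in replicate 5 at 0.277 mg/L and 35 and 18 in replicates 1 and 2 at 0.878 mg/L. Replicate 2 had 45 at 2.77 mg/L and 42 at 8.78 mg/L. No member met this count at 0.0268, 0.0848 and 0.268 mg/L of 6PPD, where 0.00541%, 0.00541% and 0.0216% of genes did, or at 0.00277, 0.00878, 0.0277, 0.0878 and 0.277 mg/L of 6PPD-Q, where 0.0216%, 0.0216%, 0.027%, 0.0811% and 0.0108% did. All these comparisons share the 10 controls, which the rule also used.

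The fish that had no part in choosing the members allow tests. These are the 60 fish at the 5 doses of 6PPD below 2.68 mg/L and the 7 doses of 6PPD-Q below 8.78 mg/L, with no control among them. They all come from plate C. Each test was fitted over all genes with edgeR's quasi-likelihood test, with Benjamini-Hochberg adjustment over all genes tested, and a gene with an adjusted p under 0.05 is called.

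At 0.848 mg/L of 6PPD, 39 of 70 members rose relative to the mean of the 4 lower 6PPD doses, where 1.09% of 21479 genes did. All 70 fitted log2 changes were positive, from 0.06 to 4.67 with a median of 0.74, while the median of all genes was 0.00. No member was called lower, where 0.154% of genes were. The 39 were 16.6% of the 235 genes that rose. They included 18 of the 24 members with the largest differences from controls at 2.68 mg/L and 21 of the other 46.

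FMg014221 rose by 4.67 ± 0.24 on the log2 scale (SE; adjusted p = 1.76e-21), with all 5 fish above every fish of the 4 lower doses. The rise of FMg014186 was 4.51 ± 0.36 (adjusted p = 6.97e-14), likewise in 5 of 5 fish. The member ranked 4 rose by 3.11 ± 0.19 (adjusted p = 3.57e-18) and the member ranked 9 by 2.75 ± 0.25 (adjusted p = 5.3e-12). The member ranked 3 rose by 2.41 ± 0.27 and the member ranked 5 by 2.07 ± 0.11, the smallest SE of the first 6 members by rank. Fish at 0.848 mg/L had 33.8, 41.3, 38.9, 25.7 and 55.4 CPM of the member ranked 5. Abundant members rose too: the member ranked 27 by 1.499 ± 0.19 (adjusted p = 1.67e-07) and the member ranked 25 by 1.35 ± 0.13 (adjusted p = 2.7e-11). The member ranked 53, with 792, 436, 509, 424 and 661 CPM, had a change of 0.74 ± 0.22 that did not pass (adjusted p = 0.0817).

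Some members high at 2.68 mg/L showed little at 0.848 mg/L. These were singled out after their values were seen. The member ranked 11 had 20.1, 9.38, 13.04, 22.8 and 17.4 CPM at 0.848 mg/L, within the 5.12 to 34.5 CPM of controls, and its change against the 4 lower doses was 0.13 ± 0.43 (adjusted p = 0.997). At 2.68 mg/L it had 715, 81.5, 48.7, 43.4 and 69.8 CPM, and the fish with 715 CPM is the one from plate A. The member ranked 22 had 528, 76.0, 39.5, 33.2 and 39.5 CPM at 2.68 mg/L with the same fish highest, against 8.90 to 25.2 CPM in controls, and 15.4 to 21.3 CPM at 0.848 mg/L. With plate C fish alone their differences from controls in L at 2.68 mg/L were 1.97 and 1.61, against 2.85 and 2.27 with all fish. That fish was more than 2 times as high as the next at 2.68 mg/L in 6 members and was the highest of the 5 in 27.

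Over the 5 lower doses of 6PPD taken as a trend, 20 of 70 members rose with dose (25 fish), where 0.273% of 20900 genes did. The largest slopes were 1.19 ± 0.16 log2 units per dose step for FMg014186 and 1.15 ± 0.15 for FMg014221 (adjusted p = 0.000704 for both). The members ranked 4, 25, 5 and 23 followed by p, with slopes of 0.73 ± 0.11, 0.34 ± 0.05, 0.47 ± 0.07 and 0.49 ± 0.08 and adjusted p from 0.00109 to 0.0027. The member ranked 23 had 59.4, 84.2, 86.9, 44.3 and 99.9 CPM at 0.848 mg/L. The trend rests on the 0.848 mg/L fish: without them 0 members were called, 64 of 70 slopes being positive with them.

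With 6PPD-Q the response in the fish that the rule did not use was small. Over the 7 lower doses of 6PPD-Q 0 of 70 members were called (35 fish), where 0.0142% of 21193 genes rose. Of the 70 slopes 58 were positive. At an unadjusted p under 0.05, 21 members had a positive slope and 2 a negative one, together 32.9% of the 70, where 3.7% of all genes tested passed in either direction. DESeq2 and limma also called 0. On simulated counts the edgeR fit called 37.3% of genes that rose by 1.5 times over these doses and 85.1% of those that rose by 2 times, so small rises can be missed. The simulated rises were even over the dose steps, unlike the members' medians, so recovery of a rise mainly at the highest of these doses was not tested. The smallest adjusted p was 0.515, for the member ranked 13, with a slope of 0.17 ± 0.04 log2 units per dose step.

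At 2.77 mg/L of 6PPD-Q, 3 of 70 members rose relative to the mean of the 4 lowest 6PPD-Q doses, where 0.0466% of 21479 genes did. The members' changes ran from -0.998 to 1.37 with a median of 0.28, and 55 were positive. At an unadjusted p under 0.05 in this fit, 27 members rose and 2 fell. Together these were 41.4% of the 70, where 4.64% of all genes tested passed in either direction. The 3 called after adjustment were the members ranked 13, 45 and 28, named because they were called. The member ranked 13 had 13.8, 11.3, 11.4, 9.68 and 5.05 CPM at 2.77 mg/L and rose by 1.19 ± 0.22 on the log2 scale (SE; adjusted p = 0.00834). The member ranked 45 had 76.4, 48.9, 78.6, 62.8 and 46.0 CPM and rose by 0.94 ± 0.19 (adjusted p = 0.0173). The member ranked 28 had 14.0, 10.1, 10.8, 10.7 and 5.11 CPM and rose by 0.92 ± 0.19 (adjusted p = 0.0216).

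In controls these 3 members had 3.09 to 6.38, 19.8 to 32.8 and 4.82 to 8.54 CPM in that order. Replicate 5 was the lowest of the 5 fish at 2.77 mg/L in all 3, and only for the member ranked 45 was it above the highest control. Single fish changed this count. It fell to 0 without replicate 1 at 2.77 mg/L and was 1 without replicate 2, 3 or 4, and 9 without replicate 5. It was 6 without replicate 2 at 0.00878 mg/L and 5 without replicate 1 at 0.00277 mg/L, replicate 5 at 0.00878 mg/L, replicate 3 at 0.0277 mg/L or replicate 2 of 0.00848 mg/L of 6PPD, which enters through the shared fit. With the share of reads outside genes as a covariate it was 4, and in a fit of the compared groups alone it was 0.

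Members that rose more at 0.848 mg/L of 6PPD also tended to have larger changes at 2.77 mg/L of 6PPD-Q. Pearson's r over the 70 members between these changes was 0.72, and 78.6% of the members had the same sign in both. Over the 21479 genes tested r was -0.01 and 48.1% had the same sign. The 2 changes rest on different fish of 1 fit, genes are not independent replicates, and members were chosen for rises with both chemicals. FMg014186 had the largest change at 2.77 mg/L, 1.37 ± 0.40, which did not pass (adjusted p = 0.531) and in which 1 fish at 26.6 CPM stood above the other 4. The change of FMg014221 there, 1.10 ± 0.27, did not pass either (adjusted p = 0.155).

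**Figure D4:**
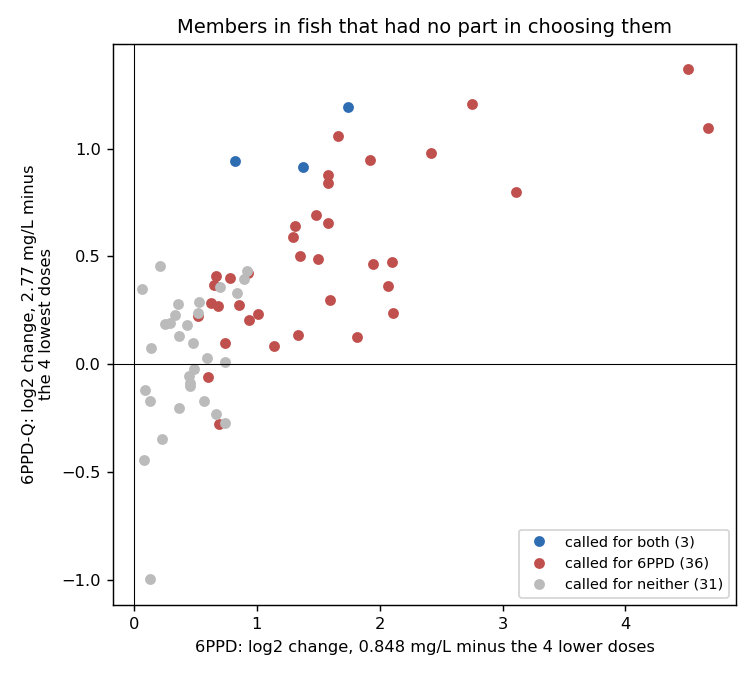
Fitted log2 change of each of the 70 members at 0.848 mg/L of 6PPD against the 4 lower 6PPD doses (x axis) and at 2.77 mg/L of 6PPD-Q against the 4 lowest 6PPD-Q doses (y axis). Colours mark members called for both, for 6PPD alone and for neither. All 70 points lie right of 0 and 55 lie above 0.

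The quinone and the parent were set against each other at 5 pairs of nearest doses outside the rule. At 0.878 mg/L of 6PPD-Q against 0.848 mg/L of 6PPD, 21 of 70 members were lower with the quinone, where 0.386% of 21479 genes were, and none was higher, where 0.0698% were. All 70 differences (6PPD-Q minus 6PPD) were negative, from -4.00 to -0.07 on the log2 scale with a median of -0.78. The rule asked for a larger rise with 6PPD, and only there for all fish above every control. The list is therefore not neutral between the chemicals. The 95% interval excluded 0 in 44 members (62.9%), where 6.44% of all genes tested had an unadjusted p under 0.05. This comparison uses the same 0.848 mg/L fish as the tests on 6PPD above.

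FMg014221 had 8.41, 9.72, 8.72, 8.20 and 23.4 CPM at 0.878 mg/L of 6PPD-Q, against 210.0, 150.3, 111, 127 and 359 CPM at 0.848 mg/L of 6PPD. The groups did not overlap, and the difference was -4.00 with a 95% interval of -4.79 to -3.22 (adjusted p = 2.67e-10). FMg014186 had 1.42, 6.56, 3.48, 9.51 and 13.1 CPM with 6PPD-Q, against 96.4, 96.8, 45.9, 14.2 and 151 CPM with 6PPD, a difference of -3.54 with an interval of -4.70 to -2.38 (adjusted p = 0.00011). The member ranked 4 differed by -2.69 (-3.29 to -2.08; adjusted p = 1.33e-08) and the member ranked 5 by -1.84 (-2.15 to -1.53; adjusted p = 4.67e-12).

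The member ranked 45 had 31.6, 52.5, 47.7, 52.4 and 38.2 CPM with 6PPD-Q, against 45.4, 55.7, 58.9, 55.5 and 73.9 CPM with 6PPD. Its groups overlapped and its difference of -0.37 had an interval of -0.87 to 0.14, which includes 0 as well as a clearly lower level with the quinone. The 49 members not called are not shown to respond alike, since the median width of the interval was 1.01 log2 units.

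**Figure D5:**
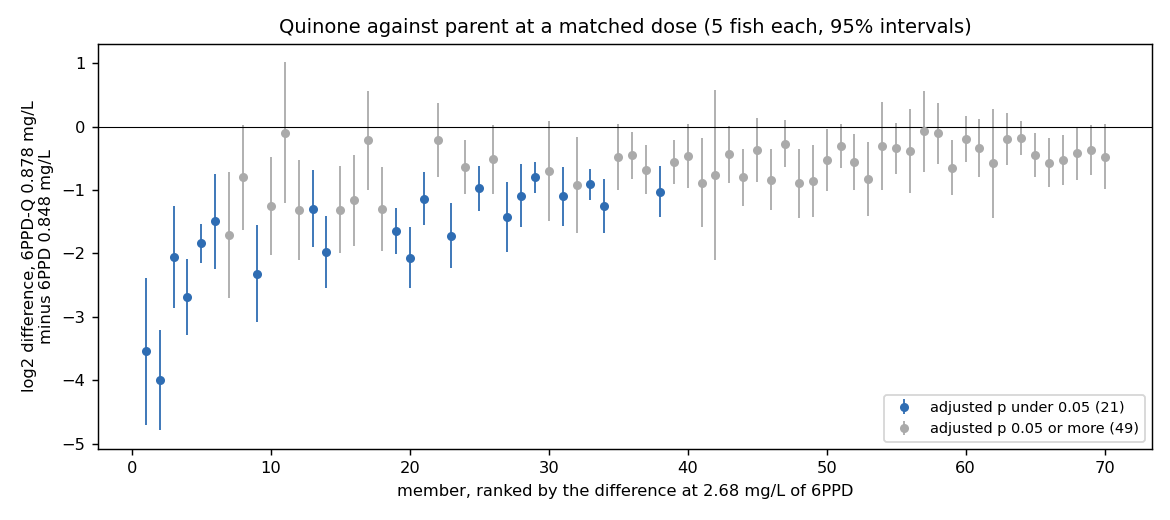
Difference between 0.878 mg/L of 6PPD-Q and 0.848 mg/L of 6PPD (6PPD-Q minus 6PPD, log2 units) with 95% intervals, for each member in order of its rank. All 70 points are below 0 and the 21 called members are in blue, with the lowest point at -4.00 for FMg014221. The rule set stricter conditions on 6PPD than on 6PPD-Q.

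At the 4 lower pairs 0 members were called, by edgeR and by limma. Backgrounds of genes called in either direction were 0.014% for 0.00878 against 0.00848 mg/L, 0% for 0.0277 against 0.0268 mg/L, 0.0885% for 0.0878 against 0.0848 mg/L and 0.00466% for 0.277 against 0.268 mg/L. The members' median differences were -0.09, 0.11, 0.06 and -0.03 in that order, and the median interval was about as wide as at the top pair, 1.01 log2 units. Members with an unadjusted p under 0.05 numbered 5, 1, 14 and 2, which is 7.14%, 1.43%, 20% and 2.86% of the 70, where 7.94%, 1.86%, 14.5% and 2.3% of all genes tested had one. DESeq2 called 1 member lower at 0.0878 against 0.0848 mg/L. The pair at 2.77 mg/L of 6PPD-Q and 2.68 mg/L of 6PPD includes fish of the rule and is given as values: the members' median difference from controls was 0.33 with the quinone and 1.52 with the parent.

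A direct test of whether the dose slopes of the chemicals differ, over the 50 fish of these pairs, called 2 of 70 members, both flatter with the quinone, where 0.028% of 21395 genes were. In log2 units for each unit of log10 dose, the difference in slope was -2.06 ± 0.37 for FMg014221 (SE; adjusted p = 0.00876) and -2.07 ± 0.40 for FMg014186 (SE; adjusted p = 0.0200). Of the 70 differences 66 were negative, and 30 (42.9%) had an unadjusted p under 0.05, where 5.39% of all genes tested had one. Here too the members were chosen by stricter conditions on 6PPD. Without the pair at 0.878 and 0.848 mg/L 0 members were called. Leaving out single fish gave 0 to 6: it was 0 without replicate 5 at 0.00878 mg/L of 6PPD-Q, 1 without replicate 2 there or replicate 1, 2 or 5 at 0.848 mg/L of 6PPD, and 4 to 6 without replicate 1, 3 or 4 at 0.00848 mg/L or replicate 1, 4 or 5 at 0.268 mg/L of 6PPD. With limma 0 members were called.

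The members did not all vary as 1 group. Over the 60 fish the rule did not use, the median Pearson correlation of L between 2 members was 0.33, and 0.17 after each dose's mean was taken away. The 2 members of a pair were read in the same libraries, which differed in depth and dose. A member's correlation with the mean of the other members ran from 0.07 to 0.93 with a median of 0.62, was 0.7 or more in 27 members and under 0.3 in 11. The member ranked 4 was highest, followed by those ranked 31, 9 and 25. The lowest were those ranked 40, 42, 57 and 70, and the members ranked 11, 22 and 26, which showed little at 0.848 mg/L of 6PPD, were also among the 11.

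The genes outside the list that followed the members' mean most closely over these 60 fish had r = 0.88, 0.87 and 0.84, where the median over 20215 other genes was 0.08. The genes with r = 0.88 and 0.84 met every condition except that on the quinone, with differences in L of 0.29 and 0.30 at 8.78 mg/L, and of 1.63 and 1.80 at 2.68 mg/L of 6PPD. The gene with r = 0.87 had differences of 0.93 and 4.37 at these doses but too few counts in controls, where it averaged 0.637 CPM.

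Identifiers of 6 members run in 3 pairs of consecutive numbers, which are not positions on a genome here. The paired members are those ranked 1 and 8, 15 and 16, and 6 and 31. Over the 60 fish their correlations of L were 0.61, 0.78 and 0.71. Whether the reads of such pairs come from near-identical copies was not tested.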

How the data were processed

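RNA was measured in 80 single whole larvae. The authors deposited whole-number counts per gene. The submitters' processing notes name STAR 2.7.10a and HTSeq 0.13.5, with Trim Galore 0.6.6 for trimming and edgeR. Build, annotation and strand setting: not given in the sources used here. Lines that name no gene were left out of library sizes and tests; the reads counted as outside genes were 7.73% to 13.5% of all reads. The authors also deposited log2 values per chemical, proportional to the counts once untransformed, which were used only to check that all 70 members are present.

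The members and lists were chosen with earlier results of these data known. CPM was computed by column sum for the rule and for levels. Tests used edgeR 4.0.16 in R 4.3.3 (quasi-likelihood, TMM, filterByExpr, two-sided, Benjamini-Hochberg adjustment over all genes tested, threshold 0.05) on the 60 fish outside the rule: slopes on dose level, single doses against the 4 lower ones and chemical pairs in 1 fit of 12 groups, and the interaction of chemical and log10 dose. Standard errors were derived from the F statistic. The fits were tested on simulated data. DESeq2 1.42.0 and limma 3.58.1, other scaling, no filter, a replicate block, a covariate added after seeing the data and omission of each fish were alternatives. Replicate numbers did not pair fish. Deviations from dose means correlated by 0.01 on average between fish of the same number (lowest -0.42, highest 0.51). Between fish of different numbers the average was -0.003. Members described singly were the first 6 by 6PPD, the first 4 by 6PPD-Q and the 6 with the smallest p in the 6PPD slope. Also described were the 3 most abundant in controls and those closest to each limit. Any other member was named after its values were seen. P-values set each change against the variation between fish, which are separate animals. In the fit of 12 groups this variation was pooled over both chemicals. In the slope and interaction fits it also held departures of dose means from a straight line.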

Additional observations from a re-analysis of the deposited data

Results flagged for a closer look

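In 8 of 129 groups of values checked (the mean over the members, and the named members' L at the upper doses and in controls), 1 fish lay apart from the rest of its group by Dixon's criterion, which chance meets in about 1 of 20 groups. At the upper 6PPD doses the member ranked 4 had 511 CPM in replicate 5 at 0.848 mg/L, where the other fish had 185 to 234 CPM. The member ranked 70 had 249.8 CPM in replicate 1 at 0.848 mg/L, where the others had 115 to 118 CPM. The member ranked 11 had 715 CPM in replicate 1 at 2.68 mg/L, which comes from plate A, where the others had 43.4 to 81.5 CPM.

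With 6PPD-Q, FMg014221 had 23.4 CPM in replicate 5 at 0.878 mg/L, where the other fish had 8.20 to 9.72 CPM. The member ranked 4 had 26.9 CPM in replicate 5 at 2.77 mg/L, where the others had 56.9 to 67.6 CPM. At 8.78 mg/L replicate 5, the library with the fewest genes detected, had 36.1 CPM of the member ranked 8, where the others had 17.0 to 20.7 CPM, and 157 CPM of the member ranked 9, where the others had 63.9 to 83.1 CPM. The member ranked 28 had 5.94 CPM in replicate 1 at 8.78 mg/L, where the others had 8.84 to 10.1 CPM.

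The chemicals differed at 0.878 mg/L of 6PPD-Q against 0.848 mg/L of 6PPD in 21 members, all lower with the quinone. The slope on dose differed in 2 members, FMg014221 and FMg014186. Both comparisons are of members that the rule chose by stricter conditions on 6PPD.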

How the results depend on the processing

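The list is 18 genes at limits of 1.0 and 0.8 in place of 0.5 and 0.4, 59 to 92 when 1 fish is left out and 85 with TMM-scaled CPM. Leaving out 1 fish gave 15 to 26 members called in the 6PPD slope, 34 to 41 at 0.848 mg/L of 6PPD, 18 to 22 lower with the quinone at 0.878 mg/L, 0 in the 6PPD-Q slope in each case, 0 to 9 at 2.77 mg/L of 6PPD-Q and 0 to 6 for the difference in slope. The 6PPD slope called 0 without the 0.848 mg/L fish. At 2.77 mg/L of 6PPD-Q, DESeq2 called 5 and the compared groups alone 0, with the cause not tested. For the difference in slope DESeq2 called 5, limma 0, the share of reads outside genes as a covariate 4, and the fit without the pair at 0.878 and 0.848 mg/L 0. The cause was not tested. With the replicate block, 17 members were called in the 6PPD slope, 0 in the 6PPD-Q slope, 42 at 0.848 mg/L, 3 at 2.77 mg/L, 23 lower with the quinone and 1 for the difference in slope. The numbers do not mark a shared source in the labels. Each fish's correlations with fish of other dose groups were averaged by replicate number, and its own number had the highest mean in 13.3% of fish. For members named singly, 1958 of 1998 alternative values kept direction and side of the threshold, 31 lost the call, 7 gained one and 2 changed sign: the change of the member ranked 11 at 0.848 mg/L became -0.00930 without replicate 4 there and ran up to 0.39 when other fish were left out, and the slope difference of FMg014221 became 0.00883 without the pair at 0.878 and 0.848 mg/L. Libraries held at least 16.2 M counts, and the widths of the intervals given for the members bound the differences that could be seen with 5 fish a dose.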
